A study of Mus musculus with 88 samples.

Results

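The comparison set 4 embryonic stem cell (ESC) lines in 2i medium against 2 ESC lines labelled S, the serum lines, by RNA sequencing. These 6 libraries were chosen by their labels and are among the 26 RNA-seq libraries of a series of 88 samples, the others of which cover further media, a second cross, fibroblasts and bisulfite sequencing. All 6 lines were F1 cells of the mouse strains 129X1/SvJ and MSM/Ms (the MSM cross) at passage 3. The 2i group held XX lines 15 and 2 and XY lines 20 and 23, and the serum group held XX line 8 and XY line 12. With 1 serum line of each sex, a serum line and its sex cannot be told apart. Nothing in the labels ties a 2i line to a serum line.

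ESCs are derived from the inner cell mass of the blastocyst and can be kept in serum with the cytokine LIF or in 2i, a defined medium with inhibitors of the kinases MEK and GSK3. Blocking MEK stops the activation of ERK, the kinase through which FGF4 pushes ESCs out of the naive state, and blocking GSK3 stabilises beta-catenin. Mouse ESCs in 2i are known for even expression of naive pluripotency factors and for DNA with little methylation, while ESCs in serum are heterogeneous and heavily methylated. XX ESCs carry both X chromosomes in the active state, and in serum they are known for weaker ERK output and lower methylation than XY ESCs.

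Expression was given as RPKM (reads per kilobase of transcript, scaled to mapped reads), a level per gene length. Values below stand in the order 2i lines 15, 2, 20 and 23, then serum lines 8 and 12. Differences are log2(RPKM + 1) in 2i minus serum from a limma fit with terms for medium and sex, with the standard error (SE), and a gene was called when its Benjamini-Hochberg adjusted p was under 0.05 over the 12377 genes tested. Differences of genes near or under 1 RPKM are understated on this scale. RPKM summed to between 748013 and 802360 per line, and 11461 to 11904 genes reached 1 RPKM in a line. Read totals were not used here; the most frequent ratio between low values, a rough guide to relative depth, ran from 0.966 to 1.93 of 2i line 2, with serum line 8 the deepest. Across the genes tested, 2i lines correlated with each other at r = 0.948 to 0.984, the serum lines at 0.971, and 2i with serum lines at 0.900 to 0.950. X-linked genes stood above autosomal genes, against the mean of the 2i XY lines, by 0.80 to 1.01 log2 units in the 3 XX lines and by -0.0041 to 0.033 in the 3 XY lines (473 X-linked and 11904 autosomal genes), as their labels say. Y-linked loci, 183 in all, read 0 in the XY and XX lines alike, and so give no check of sex. Pou5f1, which encodes the pluripotency factor OCT4, read 1806, 1571, 1577 and 1816 RPKM in the 2i lines and 1668 and 2233 RPKM in the serum lines, so the ESC label was borne out in each line.

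Fibroblast RNA was low but not equal between the lines. Over 24 fibroblast genes, the median level relative to 2 fibroblast libraries of the same cross was 0.0282%, 0.0315%, 0.72% and 0.0325% in the 2i lines and 0.598% and 1.57% in the serum lines, with 2i line 20 above serum line 8. Taken as a mean of the ratios, it was 0.963%, 0.459%, 1.25% and 0.65% in 2i and 1.74% and 4.46% in serum, with serum line 8 the higher of that pair. Their summed level ran from 23.0 to 143.6 RPKM in 2i and was 123.3 and 291.1 RPKM in serum, against 20660 and 22030 RPKM in the fibroblasts. Genes with at least 10 times the 2i level in fibroblasts made up 100 of the 861 genes called lower in 2i (11.6%) and 2.31% of the genes tested. Of the 20 fibroblast genes tested, 9 were called lower in 2i, with a median difference of -1.31. That count fell when either serum line was left out. Subtracting each serum line's fibroblast share left 1 called lower and 2 higher. Here and below the share was taken from the serum lines only. The 2i lines were left as they were, line 20 at 0.72% included. The step can therefore only raise a 2i minus serum difference or leave it unchanged. Col3a1, a fibrillar collagen, read 0.273, 0.0275, 3.87 and 0.33 RPKM in the 2i lines and 6.97 and 30.4 RPKM in the serum lines, and Bgn, a matrix proteoglycan, 0.613, 0.536, 11.1 and 0.587 RPKM in the 2i lines and 13.8 and 52.4 RPKM in the serum lines. The part of this RNA in other results was not tested except where a value with the share subtracted is given. In bulk libraries, fewer cells of a type and less RNA per cell cannot be told apart.

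A total of 1758 of 12377 genes were called, which is 14.2% of those tested. In 2i, 897 genes (7.25%) were higher and 861 (6.96%) lower, and the median difference over all genes was -0.0072. The counts for gene lists below are to be read against these shares. Differences of at least 1 log2 unit were found for 560 of the higher and 529 of the lower genes, and of at least 3 units for 17 and 20. Values of the 2i and serum lines did not overlap for 1658 of the called genes, against 37.4% of all genes tested. Each of the 1758 differed in the same direction in the XX and the XY lines, for which no share over all genes is given. Both traits follow largely from the call, which used the same values, and are no separate support. The count rests on the serum lines: it fell to 486 without serum line 8 and to 376 without serum line 12, each of which leaves a contrast within 1 sex and a lone serum line assumed to vary as the 2i lines do. It was 939 without 2i line 20 and 1143 without 2i line 23. An exact permutation test of 4 lines against 2 could not go below 0.0667 two-sided, so no single gene was tested that way. Some genes named below reached the level filter only through the 2 serum lines. They were Egr1, Spred3, Fgf5, Wnt3, Neurod1, Pax6, Esrp1, Zeb2, Dab2, Isg15, Mgp and Fam162b. Such a gene could only come out lower in 2i, so its direction is no support, also where it counts as a lower member of a list.

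**Figure D1:**
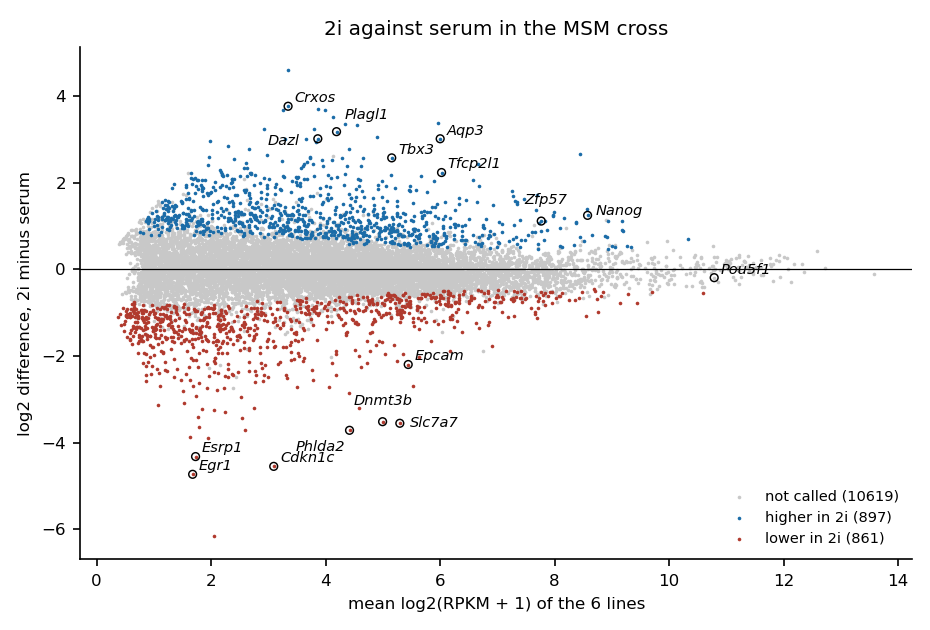
Each point is 1 of the 12377 genes tested; the x axis gives the mean log2(RPKM + 1) of the 6 lines and the y axis the log2 difference, 2i minus serum. The 897 genes called higher in 2i are blue, the 861 called lower are red, and named genes are circled; Pou5f1 lies near 0 at the right, while Egr1, Cdkn1c and Esrp1 lie below -4.

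The enzymes that place DNA methylation were lower in 2i. Dnmt3b, a de novo DNA methyltransferase (mm10 chr2:153649449-153687730), read 9.86, 12.3, 12.4 and 19.8 RPKM in the 2i lines and 150.1 and 172 RPKM in the serum lines, a difference of -3.52 ± 0.22 (SE), adjusted p = 0.00049. Dnmt3a, its partner enzyme, read 32.8, 33.4, 26.9 and 27.7 RPKM in the 2i lines and 96.9 and 161 RPKM in the serum lines (-2.02 ± 0.22 (SE), adjusted p = 0.00252). Every 2i line lay below both serum lines for both genes. Dnmt3l, the cofactor that has no activity of its own and stimulates the others, read 122, 29.7, 82.3 and 125 RPKM in the 2i lines and 212 and 339 RPKM in the serum lines (-1.76 ± 0.47 (SE), adjusted p = 0.0447), with 2i line 2 lowest and the other 2i lines closer to serum. The 3 members of this list were thus called lower, with a median of -2.02. Omitting serum line 12, serum line 8, 2i line 20 or 2i line 23 cost Dnmt3l the call. Dnmt3a and Dnmt3b passed in each of the 6 fits that left out 1 line.

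The 2 core maintenance genes were not called. Dnmt1, the maintenance methyltransferase, read 65.3, 85, 83.4 and 91.4 RPKM in the 2i lines and 83.3 and 93.8 RPKM in the serum lines (-0.13 ± 0.15 (SE), adjusted p = 0.601), and Uhrf1, which brings it to hemimethylated DNA, read 193, 209, 255 and 344 RPKM in the 2i lines and 207 and 180.3 RPKM in the serum lines (0.34 ± 0.20 (SE), adjusted p = 0.3); both sets of lines overlapped. Of 5 maintenance genes, 1 was called: Hells, a chromatin remodeller, at 121, 148, 105 and 149 RPKM in the 2i lines and 237 and 193 RPKM in the serum lines (-0.72 ± 0.18 (SE), adjusted p = 0.0336). Of 4 demethylation genes, 1 was called lower, Tdg, the glycosylase that excises oxidised methylcytosine (29.7, 41.6, 38.4 and 47.5 RPKM in the 2i lines and 75.9 and 65.1 RPKM in the serum lines; -0.84 ± 0.20 (SE), adjusted p = 0.0311). Among 7 imprint protectors, Zfp57, the zinc finger protein that guards methylated imprints, was higher at 226, 248, 318 and 347 RPKM in the 2i lines and 118 and 141 RPKM in the serum lines (1.11 ± 0.13 (SE), adjusted p = 0.00309), and the other 6 did not pass. The methyl-CpG reader Zbtb38 was higher at 1.07 (adjusted p = 0.0321), as was Suz12, a core subunit of Polycomb repressive complex 2, at 0.61 (adjusted p = 0.0458), while Jarid2, an accessory subunit of that complex, was lower at -0.92 (adjusted p = 0.013). Leaving out serum line 12 or serum line 8 ended the calls of Hells, Tdg, Zbtb38, Suz12 and Jarid2. With 2i line 20 left out, Hells, Tdg, Zbtb38 and Suz12 no longer passed. Calls lost without 2i line 23 were those of Zbtb38 and Suz12. The fit that omitted 2i line 15 no longer called Hells. Without 2i line 2, the threshold was missed by Suz12. Zfp57 passed in each of the 6 fits that left out 1 line. In these fits the difference spanned from 0.67 to 1.47 for Zbtb38 and from 0.34 to 0.87 for Suz12.

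**Figure D2:**
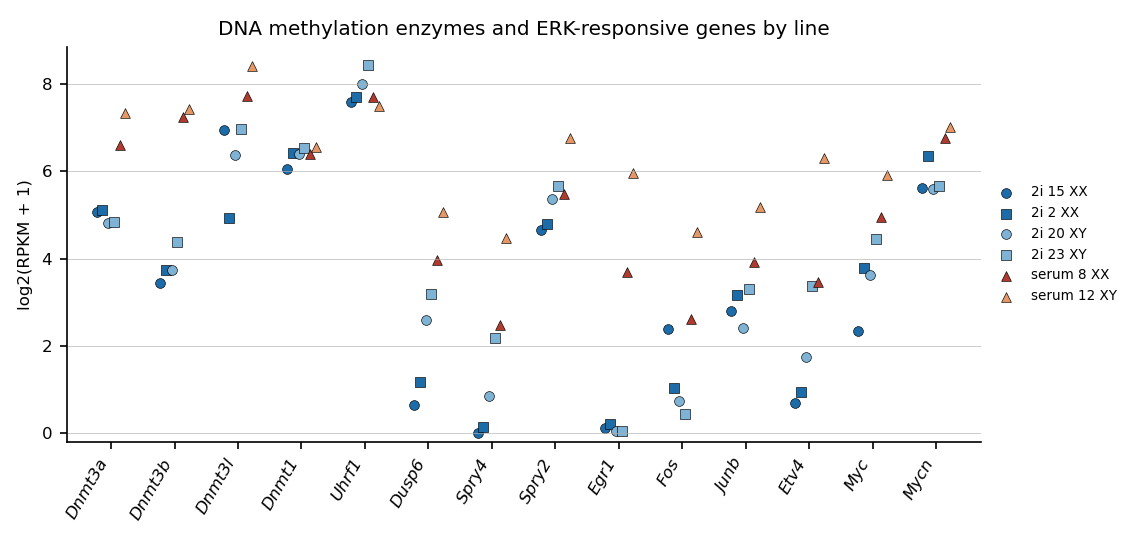
Each point is 1 line; the y axis gives log2(RPKM + 1) of genes for DNA methylation (left 5) and of ERK-responsive genes (right 9), with 2i lines in blue and serum lines in red and orange. Dnmt3a, Dnmt3b and Egr1 in the 2i lines lie well below both serum lines, Dnmt1 and Uhrf1 overlap, and the serum XX line lies below the serum XY line for Dusp6, Spry4, Egr1, Fos and Etv4.

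Many genes that answer to ERK were lower in 2i. Of 10 feedback inhibitors of the pathway, 6 were called lower and 0 higher (median -0.94), of 11 immediate early genes 6 lower and 0 higher (-0.77), and of 11 ETS and Myc effectors 4 lower and 0 higher (-0.71), against 6.96% of all genes. Dusp6, the phosphatase that inactivates ERK, read 0.563, 1.25, 5.03 and 8.14 RPKM in the 2i lines and 14.5 and 32.4 RPKM in the serum lines (-2.61 ± 0.30 (SE), adjusted p = 0.00284). Spry4, a Sprouty inhibitor of the receptor pathway, read 0, 0.101, 0.792 and 3.54 RPKM in the 2i lines and 4.56 and 21.2 RPKM in the serum lines (-2.69 ± 0.37 (SE), adjusted p = 0.00479). The other called inhibitors were Dusp4 at -1.58 (adjusted p = 0.0229), Spred3 at -1.03 (adjusted p = 0.0203), Spry2 at -0.997 (adjusted p = 0.011) and Spry1 at -0.88 (adjusted p = 0.0273). Among immediate early genes, Egr1, a zinc finger factor switched on by ERK within minutes, read 0.0859, 0.156, 0.025 and 0.0268 RPKM in the 2i lines and 11.9 and 61.6 RPKM in the serum lines (-4.73 ± 0.47 (SE), adjusted p = 0.00192). Fos, a subunit of AP-1, read 4.24, 1.03, 0.669 and 0.353 RPKM in the 2i lines and 5.15 and 23.4 RPKM in the serum lines (-2.47 ± 0.66 (SE), adjusted p = 0.0448), with 2i line 15 close to serum line 8. The further called members were Junb at -1.64 (adjusted p = 0.0252), Zfp36 at -1.43 (adjusted p = 0.0112), Jun at -0.89 (adjusted p = 0.0354) and Ier2 at -0.77 (adjusted p = 0.0334). Etv4, an ETS factor, read 0.602, 0.922, 2.37 and 9.39 RPKM in the 2i lines and 10.1 and 77.8 RPKM in the serum lines (-3.20 ± 0.45 (SE), adjusted p = 0.00502), and Myc read 4.09, 12.8, 11.2 and 20.9 RPKM in the 2i lines and 30.1 and 59.5 RPKM in the serum lines (-1.89 ± 0.40 (SE), adjusted p = 0.0198). Myc is a general activator of growth genes. Its relative Mycn differed by -1.09 (adjusted p = 0.0196) and Etv5, another ETS factor, by -0.75 (adjusted p = 0.0376). The 2i values lay below both serum values in each of these genes except Spry2, where 2i line 23 read above serum line 8.

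Within serum, the XX line lay below the XY line for 10 of 10 feedback inhibitors, 9 of 11 immediate early genes and 6 of 11 effectors, while it lay above for 49.4% of autosomal genes tested. Within 2i, both XX lines lay below both XY lines for 7 of the 10 feedback inhibitors, 5 of 11 effectors and 2 of 11 immediate early genes, against 29.9% of autosomal genes. These are orders of 2 and 4 lines and carry no test. In the absence of serum line 12, the calls of Spry4, Dusp4, Spry2, Spry1, Fos, Junb, Zfp36, Jun, Ier2, Etv4, Myc, Mycn and Etv5 were lost. Among named genes, Dusp4, Spry1, Zfp36, Jun, Ier2, Myc, Mycn and Etv5 lost the call without serum line 8. When 2i line 20 was dropped, Spred3, Spry1, Fos, Jun, Ier2, Mycn and Etv5 did not pass. For Spry1, Fos, Jun, Ier2 and Etv5, the call ended once 2i line 23 was left out. Omitting 2i line 2 cost Fos and Jun the call. Dusp6 passed in each of the 6 fits that left out 1 line. Egr1 passed in the 4 fits that left out a 2i line and fell under the level filter in those that left out a serum line. Spred3 fell under the level filter in the fits that left out a serum line. Estimates across them ran from -4.02 to -0.92 for Fos and from -2.33 to -0.94 for Junb. Of the feedback inhibitors the 6 lower became 1 without serum line 12 and 3 without serum line 8, of the immediate early genes the 6 lower became 0 without serum line 12, 2 without serum line 8, 3 without 2i line 20 and 3 without 2i line 23, and of the effectors the 4 lower became 0 without serum line 12, 1 without serum line 8 and 2 without 2i line 20. With no sex term in the fit the counts were 1, 3 and 1.

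The promoters of Dusp6 and Fos, the most lowered feedback inhibitor and immediate early gene with a printable window, are shown from RefSeq (GRCm38.p6), 250 bases before to 50 after the start of transcription. They lie at chr10:99262981-99263280, plus strand for Dusp6, and chr12:85473640-85473939, plus strand for Fos. Capitals mark matches on either strand to the E-box CACGTG, the E2F-type motif GCGGGA or the ETS core CCGGAA.
Dusp6: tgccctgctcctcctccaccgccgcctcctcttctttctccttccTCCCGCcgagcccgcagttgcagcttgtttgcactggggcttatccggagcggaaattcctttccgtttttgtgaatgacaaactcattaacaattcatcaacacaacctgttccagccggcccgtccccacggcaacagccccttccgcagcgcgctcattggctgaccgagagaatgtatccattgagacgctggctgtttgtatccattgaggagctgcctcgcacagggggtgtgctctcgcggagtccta
Fos: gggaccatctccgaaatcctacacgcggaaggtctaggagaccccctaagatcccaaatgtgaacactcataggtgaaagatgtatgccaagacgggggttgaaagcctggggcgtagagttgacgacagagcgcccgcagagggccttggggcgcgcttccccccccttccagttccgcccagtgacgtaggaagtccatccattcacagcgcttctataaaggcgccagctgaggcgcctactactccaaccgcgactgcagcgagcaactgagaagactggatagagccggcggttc
The Dusp6 window holds 1 E2F-type match and the Fos window none of these letters. The windows hold 19 and 20 CpG sites, against a median of 7 in the 32851 windows of the table. Also searched were the cAMP response element TGACGTCA and the CArG box, which neither window holds, nor any of the germline windows printed further on; 1.79% and 1.63% of all windows hold them.

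A few naive pluripotency factors were higher in 2i. Of 16 tested, 4 were higher, 1 was lower and 11 did not pass, with 13 positive differences and a median of 0.32. Tbx3, a T-box factor of the naive network, read 42.3, 82.3, 68.1 and 68.4 RPKM in the 2i lines and 13.5 and 7.14 RPKM in the serum lines (2.57 ± 0.31 (SE), adjusted p = 0.00334). Tfcp2l1, a target of LIF signalling that sustains self-renewal, read 81.7, 122, 113 and 121 RPKM in the 2i lines and 27.1 and 18.2 RPKM in the serum lines (2.23 ± 0.23 (SE), adjusted p = 0.00196). Prdm14, which restrains the de novo methyltransferases and FGF signalling, read 55.2, 77.9, 30.8 and 33 RPKM in the 2i lines and 26.6 and 6.84 RPKM in the serum lines (1.67 ± 0.23 (SE), adjusted p = 0.00464), with serum line 12 far the lowest. Fgf4, the growth factor that feeds ERK, differed by 0.63 (adjusted p = 0.0273). Esrrb, an orphan receptor acting downstream of GSK3, read 139.8, 222, 204 and 258 RPKM in the 2i lines and 149 and 176 RPKM in the serum lines (0.31 ± 0.20 (SE), adjusted p = 0.336) and overlapped between media, and Klf4, Zfp42 and Klf2 likewise did not pass. Gbx2, a homeobox factor, went the other way at 1.53, 2.89, 12.8 and 20.1 RPKM in the 2i lines and 11.9 and 66 RPKM in the serum lines (-2.01 ± 0.26 (SE), adjusted p = 0.0039), with both 2i XY lines above serum line 8 although each lay below the serum line of its own sex.

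Among 14 core pluripotency genes 1 was higher and 5 were lower. Nanog read 563, 677, 374 and 465 RPKM in the 2i lines and 326 and 139.7 RPKM in the serum lines (1.25 ± 0.19 (SE), adjusted p = 0.00647), with each 2i line above both serum lines. Lin28a, an RNA-binding protein that blocks let-7 maturation, read 24.4, 35, 64.8 and 77.2 RPKM in the 2i lines and 164 and 181 RPKM in the serum lines (-1.90 ± 0.26 (SE), adjusted p = 0.00494), and its paralogue Lin28b differed by -1.02 (adjusted p = 0.0227). Utf1, a chromatin factor of undifferentiated cells, read 78.2, 70.2, 154 and 186 RPKM in the 2i lines and 155 and 376 RPKM in the serum lines (-1.10 ± 0.14 (SE), adjusted p = 0.0038), where 2i line 23 lay above serum line 8. The remaining called members were Dppa2 at -0.86 (adjusted p = 0.0235) and L1td1 at -0.67 (adjusted p = 0.0497). Pou5f1 differed by -0.19 ± 0.15 (SE), adjusted p = 0.428. In fits without 1 line, among the naive factors the 4 higher became 2 without serum line 12 and 6 without 2i line 15, and among the core genes the 5 lower became 1 without serum line 12, 2 without serum line 8, 2 without 2i line 20 and 3 without 2i line 23. Leaving out serum line 12 ended the calls of Prdm14, Fgf4, Nanog, Lin28b, Utf1, Dppa2 and L1td1. With serum line 8 or 2i line 20 left out, Fgf4, Lin28b, Dppa2 and L1td1 no longer passed. Calls lost without 2i line 23 were those of Lin28b and L1td1. The fit that omitted 2i line 15 no longer called L1td1. Tbx3, Tfcp2l1, Gbx2 and Lin28a passed in each of the 6 fits that left out 1 line.

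Several genes of the formative and primed epiblast, the stage that follows the naive one, were lower. Of 15 tested, 8 were called lower and 0 higher, with a median of -0.87. Wnt8a, a Wnt ligand, read 0.789, 1.72, 0.505 and 1.03 RPKM in the 2i lines and 14.2 and 21.5 RPKM in the serum lines (-3.24 ± 0.30 (SE), adjusted p = 0.0017). Pou3f1, a POU factor of the epiblast and nervous system, read 2.2, 2.42, 1.5 and 1.79 RPKM in the 2i lines and 15.2 and 14.8 RPKM in the serum lines (-2.44 ± 0.21 (SE), adjusted p = 0.00142). Grhl2, which opens epithelial enhancers on leaving the naive state, read 3.88, 1.44, 0.581 and 0.699 RPKM in the 2i lines and 10.0 and 12.8 RPKM in the serum lines (-2.37 ± 0.39 (SE), adjusted p = 0.00838). The growth factor gene Fgf5, the usual marker of the epiblast, was low in both media at 0.0848, 0.032, 0.69 and 0.567 RPKM in the 2i lines and 5.58 and 2.19 RPKM in the serum lines (-1.80 ± 0.36 (SE), adjusted p = 0.017). Others called included Sox4 at -2.05 (adjusted p = 0.00259), Fgf15 at -1.78 (adjusted p = 0.00414) and Sall2 at -1.01 (adjusted p = 0.0312). Otx2, a factor of early epiblast, did not follow: it read 48.1, 29.1, 6.82 and 2.32 RPKM in the 2i lines and 33.9 and 17.7 RPKM in the serum lines (-0.87 ± 0.50 (SE), adjusted p = 0.278), with the XX lines above the XY lines in both media. Few lineage genes were measured: of the genes matched by symbol, 4 of 12 mesoderm and endoderm genes and 4 of 9 neural genes reached the filter. Wnt3 at -1.46 (adjusted p = 0.00526), Neurod1 at -2.02 (adjusted p = 0.0252) and Pax6 at -1.04 (adjusted p = 0.0215) were lower. These genes reached the filter only through the serum lines, which fixed their direction. Gsc at 1.27 (adjusted p = 0.0218) was higher. Among the formative genes the 8 lower became 4 without serum line 12 and 5 without serum line 8. Without serum line 12, the threshold was missed by Grhl2, Sall2 and Gsc. In the absence of serum line 8, the calls of Sall2 and Gsc were lost. Among named genes, Sall2, Neurod1, Pax6 and Gsc lost the call without 2i line 20. When 2i line 23 was dropped, Sall2 and Neurod1 did not pass. Wnt8a, Pou3f1, Sox4 and Fgf15 passed in each of the 6 fits that left out 1 line. Fgf5 and Wnt3 passed in the 4 fits that left out a 2i line and fell under the level filter in those that left out a serum line. Neurod1 and Pax6 fell under the level filter in the fits that left out a serum line.

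**Figure D3:**
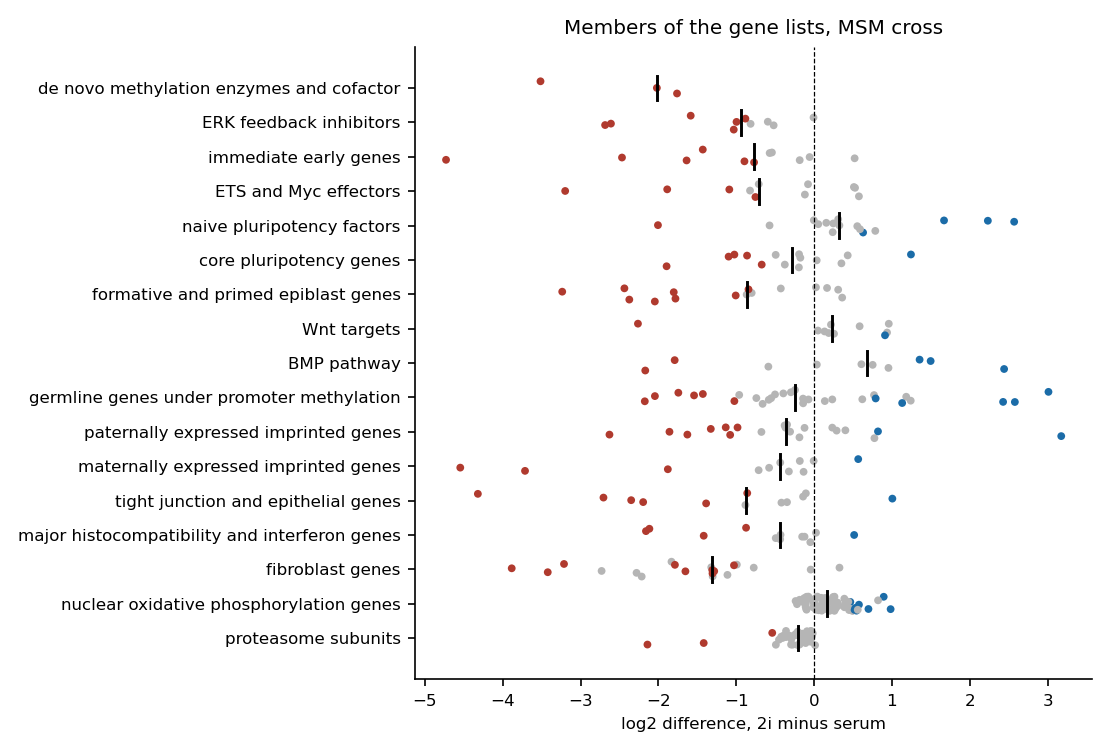
Each point is a tested member of a gene list; the x axis gives its log2 difference, 2i minus serum, blue where called higher, red where called lower and grey where not called, with a black bar at the list's median and a dashed line at the median of all genes (-0.0072). The de novo enzymes, the ERK lists and the formative genes lie mostly left of the dashed line, while germline and imprinted genes spread to both sides.

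Few targets of beta-catenin were called in 2i. Of 10 Wnt targets, 1 was higher (2 without 2i line 15) and 1 lower, against 7.25% and 6.96% of all genes. Their median was 0.24, with 9 positive differences. Axin2, the feedback scaffold of the pathway, read 5.16, 12.8, 25.4 and 17.9 RPKM in the 2i lines and 5.54 and 7.58 RPKM in the serum lines (0.94 ± 0.36 (SE), adjusted p = 0.123), with 2i line 15 below both serum lines. Notum, a secreted Wnt deacylase, was higher at 40.8, 79, 36.4 and 36.9 RPKM in the 2i lines and 30.8 and 18.3 RPKM in the serum lines (0.91 ± 0.25 (SE), adjusted p = 0.0469). Lef1, a DNA-binding partner of beta-catenin and a target in its own right, was lower at 13.1, 8.2, 19.2 and 16.1 RPKM in the 2i lines and 71.3 and 66.6 RPKM in the serum lines (-2.26 ± 0.25 (SE), adjusted p = 0.00252). Of 7 further genes of the beta-catenin machinery 0 passed, and Apc, a part of the destruction complex, lay farthest from 0 at 0.51 (adjusted p = 0.404). Of 10 BMP pathway genes 3 were higher (5 without 2i line 15) and 2 lower. Id4, an inhibitor of bHLH factors, read 9.79, 8.68, 11.6 and 8.96 RPKM in the 2i lines and 1.54 and 0.525 RPKM in the serum lines (2.44 ± 0.26 (SE), adjusted p = 0.00221), while Id1, the classic BMP target, read 1.06, 1.71, 3.67 and 13.7 RPKM in the 2i lines and 8.73 and 39.7 RPKM in the serum lines (-2.17 ± 0.42 (SE), adjusted p = 0.015), and Bmp4, the ligand, 1.71, 2.16, 10.3 and 17.6 RPKM in the 2i lines and 14.5 and 31.9 RPKM in the serum lines (-1.79 ± 0.33 (SE), adjusted p = 0.0123). For Id1 and Bmp4 the 2i XX lines were lowest and 2i line 23 lay above serum line 8. Smad6 at 1.5 (adjusted p = 0.0143) and Smad9 at 1.36 (adjusted p = 0.0204) were higher. In the LIF pathway, 1 of 10 genes passed, Cish at -1.30 (adjusted p = 0.0483), against 14.2% of all genes. Of 10 Nodal genes 0 passed at an adjusted p under 0.05, with Lefty1 at -1.17 (adjusted p = 0.112) the farthest from 0. For Notum, Id1, Smad6, Smad9 and Cish, the call ended once serum line 12 was left out. Omitting serum line 8 cost Notum, Id1, Bmp4, Smad6 and Cish the call. Leaving out 2i line 20 or 2i line 23 ended the calls of Notum and Cish. With 2i line 2 left out, Cish no longer passed. Lef1 and Id4 passed in each of the 6 fits that left out 1 line. Over those fits the difference ran from -2.40 to -1.18 for Bmp4, from 0.88 to 1.83 for Smad9 and from -1.79 to -0.81 for Cish.

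Germline genes, which ESCs hold silent largely by promoter methylation, moved both ways. Of 29 tested, 5 were higher, 6 lower and 18 did not pass, with a median of -0.24. Dazl, an RNA-binding protein of germ cells (mm10 chr17:50279393-50293599), read 178, 70.8, 9.62 and 4.3 RPKM in the 2i lines and 4.46 and 1.4 RPKM in the serum lines (3.01 ± 0.63 (SE), adjusted p = 0.0193). Both 2i XX lines stood far above every other line, and 2i line 23 lay just under serum line 8. Fkbp6, a chaperone partner in the piRNA pathway of the testis, read 55.1, 43.3, 13.6 and 8.12 RPKM in the 2i lines and 7.7 and 0.852 RPKM in the serum lines (2.58 ± 0.24 (SE), adjusted p = 0.00166), and here the 4 2i lines exceeded both serum lines. Tuba3a, a testis tubulin, read 56.7, 37.4, 13.2 and 5.87 RPKM in the 2i lines and 6.58 and 1.11 RPKM in the serum lines (2.43 ± 0.32 (SE), adjusted p = 0.00414), with 2i line 23 under serum line 8; its near-identical copy Tuba3b may share its reads. Sohlh2, a factor of early germ cells, differed by 1.13 (adjusted p = 0.0382) and Cpxm1 by 0.79 (adjusted p = 0.0284). The lowered genes included Mael, a piRNA factor, at 3.13, 1.23, 2.06 and 1.75 RPKM in the 2i lines and 15.5 and 9.91 RPKM in the serum lines (-2.17 ± 0.29 (SE), adjusted p = 0.00441), and Sycp3, a part of the axis of meiotic chromosomes, at 10.1, 2.49, 11.1 and 6.52 RPKM in the 2i lines and 32.9 and 28.9 RPKM in the serum lines (-2.04 ± 0.45 (SE), adjusted p = 0.0235). Dmrt1 at -1.74 (adjusted p = 0.0118), the germ cell helicase Ddx4 at -1.54 (adjusted p = 0.00999), Tdrkh at -1.43 (adjusted p = 0.00668) and Mov10l1 at -1.02 (adjusted p = 0.0414) were also lower.

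Many of these genes were ordered by sex. Both 2i XX lines lay above both 2i XY lines for 17 of the 29, against 17.3% of autosomal genes tested, and the serum XX line lay above the serum XY line for 23 of 29, against 49.4%. Asz1, a germ cell adaptor, read 2.81, 1.49, 0.152 and 0.0495 RPKM in the 2i lines and 0.164 and 0 RPKM in the serum lines (0.77 ± 0.33 (SE), adjusted p = 0.161), so that only the 2i XX lines passed 1 RPKM. Hormad1, a meiotic axis protein, read 63.4, 33.9, 13.3 and 7.76 RPKM in the 2i lines and 50.6 and 13.4 RPKM in the serum lines, and Smc1b, the meiotic cohesin, 8.01, 2.25, 0.831 and 0.396 RPKM in the 2i lines and 9.45 and 0.659 RPKM in the serum lines; in both, the serum XX line was near the 2i XX lines and the medium difference did not pass. In limma, 0 of 12377 genes were called for a medium by sex difference (with 705 at an unadjusted p under 0.05), a fit with 2 residual degrees of freedom that recovered 36 of 100 simulated differences of 2 log2 units and 1 of 100 of 1 unit. Over the list, the 5 higher became 3 without serum line 12, 1 without serum line 8 and 3 without 2i line 20, and the 6 lower became 1 without serum line 12 and 1 without serum line 8. Calls lost without serum line 12 were those of Sohlh2, Cpxm1, Sycp3, Dmrt1, Ddx4, Tdrkh and Mov10l1. The fit that omitted serum line 8 no longer called Dazl, Tuba3a, Sohlh2, Cpxm1, Mael, Sycp3, Dmrt1, Ddx4, Tdrkh and Mov10l1. Without 2i line 20, the threshold was missed by Sohlh2, Cpxm1 and Mov10l1. In the absence of 2i line 23, the call of Cpxm1 was lost. Among named genes, Sohlh2 and Mov10l1 lost the call without 2i line 15. When 2i line 2 was dropped, Mov10l1 did not pass. Fkbp6 passed in each of the 6 fits that left out 1 line. In these fits the difference spanned from 1.65 to 4.38 for Dazl.

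The 3 most raised and 2 most lowered germline promoters of the RefSeq table (GRCm38.p6) are printed because these genes are known for silencing at their promoters. They lie at chr17:50293571-50293870, minus strand for Dazl, chr5:135349995-135350294, minus strand for Fkbp6, chr6:125286032-125286331, minus strand for Tuba3a, chr1:166238695-166238994, minus strand for Mael, and chr10:88459337-88459636, plus strand for Sycp3. Capitals mark the same motifs as in the promoters of Dusp6 and Fos.
Dazl: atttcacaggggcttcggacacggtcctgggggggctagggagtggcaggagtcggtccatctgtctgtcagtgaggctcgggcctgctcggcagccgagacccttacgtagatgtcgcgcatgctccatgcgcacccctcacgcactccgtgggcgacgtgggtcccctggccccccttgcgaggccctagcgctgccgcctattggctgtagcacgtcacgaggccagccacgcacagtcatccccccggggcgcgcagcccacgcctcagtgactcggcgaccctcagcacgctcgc
Fkbp6: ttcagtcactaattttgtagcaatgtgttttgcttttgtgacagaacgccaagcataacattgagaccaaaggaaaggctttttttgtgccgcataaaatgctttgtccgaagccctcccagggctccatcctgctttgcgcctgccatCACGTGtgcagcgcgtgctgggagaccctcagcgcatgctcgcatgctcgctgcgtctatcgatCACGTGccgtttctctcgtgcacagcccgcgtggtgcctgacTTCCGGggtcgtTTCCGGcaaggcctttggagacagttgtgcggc
Tuba3a: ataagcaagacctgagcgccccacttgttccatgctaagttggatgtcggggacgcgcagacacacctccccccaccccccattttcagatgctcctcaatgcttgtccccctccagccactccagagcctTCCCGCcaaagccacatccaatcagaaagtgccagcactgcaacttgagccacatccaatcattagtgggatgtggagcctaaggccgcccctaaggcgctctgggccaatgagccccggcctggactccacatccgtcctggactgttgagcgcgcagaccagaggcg
Mael: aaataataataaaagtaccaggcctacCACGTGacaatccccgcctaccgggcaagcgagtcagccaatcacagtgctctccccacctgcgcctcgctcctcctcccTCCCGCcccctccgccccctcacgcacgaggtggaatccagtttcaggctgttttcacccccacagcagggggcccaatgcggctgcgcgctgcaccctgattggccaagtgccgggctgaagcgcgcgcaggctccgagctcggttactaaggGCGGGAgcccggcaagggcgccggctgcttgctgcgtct
Sycp3: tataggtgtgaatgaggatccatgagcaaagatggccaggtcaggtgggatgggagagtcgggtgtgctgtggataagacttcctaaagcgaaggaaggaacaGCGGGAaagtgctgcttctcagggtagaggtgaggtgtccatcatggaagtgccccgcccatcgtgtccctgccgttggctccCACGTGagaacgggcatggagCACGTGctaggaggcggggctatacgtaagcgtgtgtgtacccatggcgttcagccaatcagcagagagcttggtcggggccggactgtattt
An E-box, the letters bound by factors such as MAX, occurs 2 times in the windows of Fkbp6 and Sycp3 and 1 time in that of Mael, and in 7.15% of all 32851 windows. It stands in genes that were higher and in genes that were lower. The Dazl window holds none of the 3 marked motifs. The E2F-type motif occurs 1 time in Tuba3a and Sycp3 and 2 times in Mael, and in 20.0% of windows, and the ETS core 2 times in Fkbp6 and in 14.9% of windows. CpG sites numbered 28 in Dazl, 21 in Fkbp6, 12 in Tuba3a, 24 in Mael and 15 in Sycp3; the median of all windows was 7 and the upper quartile 20. A match in these letters is a description of the window, not a bound site.

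Imprinted genes, expressed from 1 parental copy, were lower more often than higher. Of 20 paternally expressed genes tested, 7 were lower and 2 higher (median -0.36), and of 11 maternally expressed genes 3 were lower and 1 higher (-0.43). Cdkn1c, which encodes the cell cycle inhibitor p57 (mm10 chr7:143458338-143461050), read 1.51, 1.48, 2.6 and 2.54 RPKM in the 2i lines and 49.2 and 95.9 RPKM in the serum lines (-4.55 ± 0.20 (SE), adjusted p = 0.000108). Phlda2, its neighbour in the cluster on distal chromosome 7 and a brake on placental growth, read 1.93, 1.75, 28.6 and 27.2 RPKM in the 2i lines and 77.8 and 178 RPKM in the serum lines (-3.71 ± 0.41 (SE), adjusted p = 0.00252), and the 2i XX lines lay far below the 2i XY lines. Grb10, an adaptor that restrains insulin signalling, read 15.7, 14.4, 20.1 and 17.2 RPKM in the 2i lines and 59.4 and 69.3 RPKM in the serum lines (-1.88 ± 0.16 (SE), adjusted p = 0.00142). Cd81, of the same chromosome 7 cluster, was higher at 0.57 (adjusted p = 0.0305). Of the paternal genes, Plagl1, a zinc finger factor, read 29.4, 59.97, 28.3 and 37.5 RPKM in the 2i lines and 3.71 and 2.76 RPKM in the serum lines (3.18 ± 0.28 (SE), adjusted p = 0.00147), with the 4 2i lines far above serum. Igf2, the fetal growth factor, read 0.484, 0.0972, 2.36 and 1.3 RPKM in the 2i lines and 7.34 and 15.3 RPKM in the serum lines (-2.63 ± 0.26 (SE), adjusted p = 0.00185). It read 792 and 309 RPKM in the fibroblasts, so part of its serum signal can be fibroblast RNA. With the fibroblast share of the serum lines subtracted the paternal list had 7 lower. That count does not give the difference of Igf2 itself. Peg10 read 31.8, 19.4, 5.45 and 10.4 RPKM in the 2i lines and 56.3 and 49.95 RPKM in the serum lines (-1.86 ± 0.38 (SE), adjusted p = 0.0176), and Mest 19.4, 26.6, 17.1 and 22.7 RPKM in the 2i lines and 44.1 and 51.6 RPKM in the serum lines (-1.14 ± 0.21 (SE), adjusted p = 0.0124). Snurf at -1.08 (adjusted p = 0.00368) and Snrpn at -0.98 (adjusted p = 0.013), which share a transcript and whose reads cannot be cleanly divided, were lower, as were Dlk1 at -1.63 (adjusted p = 0.0367) and Nnat at -1.33 (adjusted p = 0.0163), while Zrsr1 at 0.82 (adjusted p = 0.0394) was higher. RPKM does not tell the parental copies apart. Of the paternal genes, the 7 lower became 3 without serum line 12 and 4 without serum line 8, and the 2 higher became 1 without serum line 12, 1 without serum line 8, 1 without 2i line 20, 1 without 2i line 23 and 1 without 2i line 2. For Cd81, Peg10, Mest, Dlk1, Nnat and Zrsr1, the call ended once serum line 12 was left out. Omitting serum line 8 cost Cd81, Mest, Snrpn, Nnat and Zrsr1 the call. Leaving out 2i line 20 or 2i line 23 ended the calls of Cd81, Dlk1 and Zrsr1. With 2i line 15 left out, Dlk1 no longer passed. The call lost without 2i line 2 was that of Zrsr1. Cdkn1c, Phlda2, Grb10, Plagl1, Igf2 and Snurf passed in each of the 6 fits that left out 1 line. Estimates across them ran from -2.57 to -1.15 for Peg10 and from -2.61 to -0.64 for Dlk1.

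**Figure D4:**
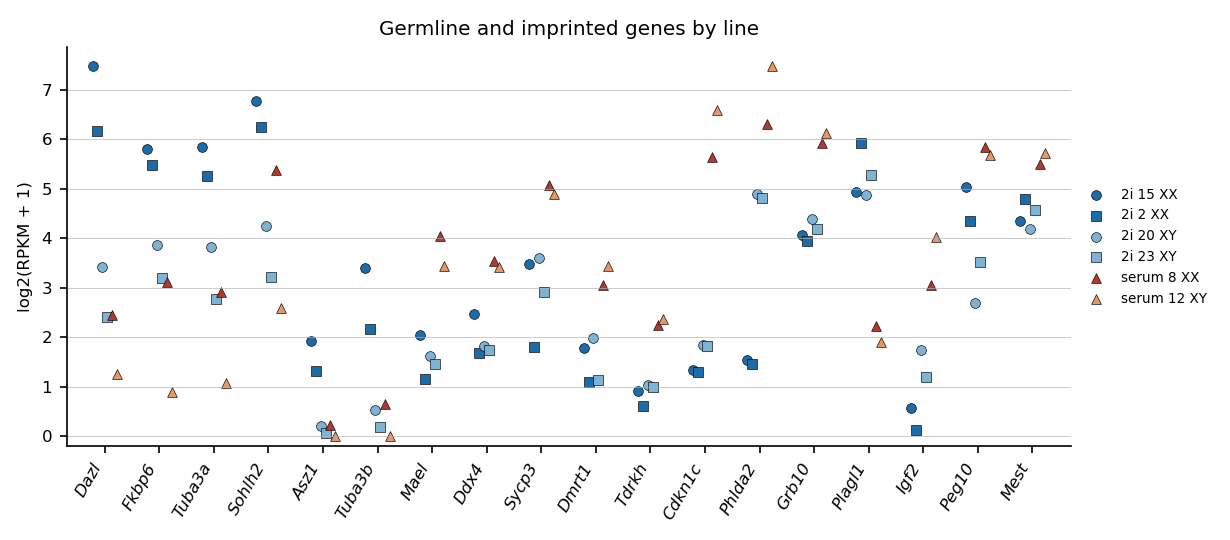
Each point is 1 line; the y axis gives log2(RPKM + 1) of germline genes (left 11) and imprinted genes (right 7), with 2i lines in blue, dark for XX, and serum lines in red and orange. Dazl, Fkbp6, Tuba3a and Sohlh2 are highest in the 2i XX lines, while Cdkn1c and Grb10 are low in each 2i line.

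Junction and adhesion genes were lower more often than higher. Of 12 tight junction and epithelial genes 6 were lower and 1 higher, with a median of -0.87. Esrp1, the epithelial splicing regulator, read 0.0864, 0, 0.293 and 0.581 RPKM in the 2i lines and 25.7 and 21.3 RPKM in the serum lines (-4.32 ± 0.25 (SE), adjusted p = 0.00049). Epcam, an adhesion molecule of epithelia, read 30.8, 20.7, 28.5 and 22 RPKM in the 2i lines and 114 and 124 RPKM in the serum lines (-2.20 ± 0.20 (SE), adjusted p = 0.0015), and the claudins Cldn6 and Cldn7 read 1.94, 1.52, 14.6 and 10.7 RPKM in the 2i lines and 39.2 and 38 RPKM in the serum lines (-2.71 ± 0.46 (SE), adjusted p = 0.0102) and 3.45, 5, 1.38 and 2.75 RPKM in the 2i lines and 18.6 and 19.4 RPKM in the serum lines (-2.35 ± 0.30 (SE), adjusted p = 0.0038). Cldn4, another claudin, was higher at 1.01 (adjusted p = 0.0151), and Cdh1, which encodes E-cadherin, read 135, 139, 168 and 138 RPKM in the 2i lines and 152 and 222 RPKM in the serum lines (-0.35 ± 0.15 (SE), adjusted p = 0.164) and overlapped. Of 8 mesenchymal genes 3 were lower, among them S100a6 at -2.70 (adjusted p = 0.0283), Cd44 at -1.04 (adjusted p = 0.0259) and Zeb2 at -1.03 (adjusted p = 0.0176), of which S100a6 read 8955 and 10010.0 RPKM in the fibroblasts, and with the fibroblast share subtracted 0 were lower. Fn1, the gene of fibronectin, was higher at 0.74 (adjusted p = 0.0206). Of the junction genes, the 6 lower became 3 without serum line 12 and 3 without serum line 8. The fit that omitted serum line 12 no longer called Cldn7, Cldn4, S100a6, Cd44 and Fn1. Without serum line 8, the threshold was missed by Cldn4, S100a6, Cd44 and Fn1. In the absence of 2i line 23, the call of Cd44 was lost. Among named genes, S100a6 lost the call without 2i line 15. Epcam and Cldn6 passed in each of the 6 fits that left out 1 line. Esrp1 and Zeb2 passed in the 4 fits that left out a 2i line and fell under the level filter in those that left out a serum line. Over those fits the difference ran from -3.88 to -1.53 for Cldn6.

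Markers of the extraembryonic lineages were mostly not called. The share called higher was nonetheless above the 7.25% of all genes in both the primitive endoderm and the trophectoderm list. Of 12 primitive endoderm genes 3 were higher, the basement membrane genes Sparc, Lama1 and Lamc1, and 1 was lower, the endocytic adaptor Dab2; with the fibroblast share subtracted 5 were higher. Sparc read 286, 228, 192 and 179 RPKM in the 2i lines and 111 and 86.1 RPKM in the serum lines (1.15 ± 0.14 (SE), adjusted p = 0.0036), and Lama1 differed by 1.43 (adjusted p = 0.0188) and Lamc1 by 0.63 (adjusted p = 0.0267). Dab2 read 0.541, 0.439, 0.367 and 0.331 RPKM in the 2i lines and 3.15 and 4.25 RPKM in the serum lines (-1.72 ± 0.22 (SE), adjusted p = 0.00401). The summed level of the defining markers Gata4, Gata6, Sox17, Sox7, Pdgfra and Dab2 ran from 2.1 to 4.4 RPKM in 2i and was 5.88 and 7.92 RPKM in serum. That sum was 151.7 and 97.2 RPKM in the fibroblasts, so part of the serum level can be fibroblast RNA. The size of that part was not tested. Of 9 trophectoderm genes 3 were higher, Tead4 at 1.64 (adjusted p = 0.0109), Gata2 at 1.38 (adjusted p = 0.0335) and Tfap2a at 0.99 (adjusted p = 0.023), and the sum of Cdx2, Elf5, Gata3, Krt7 and Tfap2a was 1.82 to 9.28 RPKM in 2i against 1.72 and 1.46 in serum. The 2-cell-like genes stayed under the filter, with 6 of them summing to at most 1.42 RPKM in 2i and to 3.76 and 0.29 RPKM in serum. When serum line 12 was dropped, Lama1, Lamc1, Tead4, Gata2 and Tfap2a did not pass. For Lamc1, Gata2 and Tfap2a, the call ended once serum line 8 was left out. Omitting 2i line 20 cost Lama1, Lamc1, Gata2 and Tfap2a the call. Leaving out 2i line 23 ended the call of Lamc1. With 2i line 15 or 2i line 2 left out, Gata2 no longer passed. Sparc passed in each of the 6 fits that left out 1 line. Dab2 passed in the 4 fits that left out a 2i line and fell under the level filter in those that left out a serum line. In these fits the difference spanned from 1.02 to 2.27 for Tead4.

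Cell cycle, metabolic and stress genes moved both ways. Of 15 G1 cyclins and Cdk inhibitors tested, 3 were higher and 2 lower. Of 14 fatty acid and 1-carbon genes, 3 were higher and 1 lower. Of 13 heat shock, metal and p53 genes, 3 were higher and 2 lower. Of 16 amino acid stress genes, 1 was higher and 2 lower. Over all genes tested, 7.25% were higher and 6.96% lower. Ccnd1, the cyclin that ERK supports in many cells, read 44.9, 51.4, 22.8 and 39.6 RPKM in the 2i lines and 113 and 134 RPKM in the serum lines (-1.66 ± 0.27 (SE), adjusted p = 0.00831), and Ccne1 differed by -1.28 (adjusted p = 0.0184), while the Cdk inhibitors Cdkn2a at 1.32 (adjusted p = 0.0119) and Cdkn2c at 0.96 (adjusted p = 0.0284) were higher, as was Rbl1, a relative of the retinoblastoma gene, at 0.74 (adjusted p = 0.0382). Of 22 glycolysis genes 3 were higher, Ldhb at 1.39 (adjusted p = 0.0229), Hk1 at 1.08 (adjusted p = 0.025) and Slc2a3 at 0.77 (adjusted p = 0.022), and 0 lower; the 3 higher became 0 without serum line 12, 1 without serum line 8, 1 without 2i line 20 and 7 without 2i line 2, and 1 was lower without 2i line 15 or serum line 8. Scd1, a fatty acid desaturase, read 67.4, 44.4, 62.5 and 56.1 RPKM in the 2i lines and 16.6 and 8.49 RPKM in the serum lines (2.17 ± 0.26 (SE), adjusted p = 0.00348), and Scd2 at 1.08 (adjusted p = 0.00605) and the malic enzyme Me1 at 1.48 (adjusted p = 0.00702) were higher too. Nqo1, an oxidoreductase of the NRF2 response, was higher at 1.58 (adjusted p = 0.00324), as were Gadd45b at 1.88 (adjusted p = 0.0175) and the metallothionein Mt1 at 1.09 (adjusted p = 0.0119), while Gadd45a at -1.30 (adjusted p = 0.022) and Mdm2 at -0.996 (adjusted p = 0.0296), both p53 targets, were lower. Asns, which makes asparagine, was higher at 1.13 (adjusted p = 0.0166), and Phgdh, of serine synthesis, was lower at -1.14 (adjusted p = 0.00765). Nuclear genes of oxidative phosphorylation had 8 of 79 higher and 0 lower, near the 7.25% of all genes. Their median was 0.16, with 64 positive and 15 negative differences. Quantile scaling gave 16 higher. The members farthest from 0 were Cox7a1 at 0.98 (adjusted p = 0.0223), Cox5a at 0.89 (adjusted p = 0.00637), Cox6b1 at 0.70 (adjusted p = 0.0104) and Ndufb4 at 0.58 (adjusted p = 0.033). Of 81 ribosomal protein genes 1 was called, Rpl39l, a testis-enriched paralogue (242, 214, 261 and 205 RPKM in the 2i lines and 70.8 and 60.2 RPKM in the serum lines; 1.80 ± 0.15 (SE), adjusted p = 0.00142). The ribosomal differences were positive for 67 and negative for 14 genes. Their median was 0.11, with 0.26 in the XX and -0.0097 in the XY lines. Among 37 proteasome subunits 3 were lower, near the 6.96% of all genes. Their differences were negative for 36 and positive for 1, with a median of -0.21. The median over all genes was -0.0072, and these sign counts carry no test. Of the 3 lower subunits, Psmb10 and Psmb9 belong to the immunoproteasome. Psmb10 read 4.19, 1.65, 7.76 and 7.04 RPKM in the 2i lines and 23.2 and 24.1 RPKM in the serum lines (-2.14 ± 0.34 (SE), adjusted p = 0.00808), and Psmb9 differed by -1.42 (adjusted p = 0.0149). Tap1, the peptide transporter of the MHC class I pathway, read 1.98, 0.66, 1.76 and 2.09 RPKM in the 2i lines and 8.72 and 11.5 RPKM in the serum lines (-2.12 ± 0.27 (SE), adjusted p = 0.00398) and the interferon-induced Isg15 0, 0, 0.256 and 0 RPKM in the 2i lines and 5.97 and 2.21 RPKM in the serum lines (-2.16 ± 0.32 (SE), adjusted p = 0.00589), listed at 0 in 3 of the 2i lines, within a list of 12 with 4 lower and 1 higher. Of the oxidative phosphorylation genes, the 8 higher became 1 without serum line 12, 0 without serum line 8, 2 without 2i line 20, 3 without 2i line 23 and 5 without 2i line 2. Calls lost without serum line 12 were those of Ccnd1, Ccne1, Cdkn2a, Cdkn2c, Rbl1, Ldhb, Hk1, Slc2a3, Scd2, Me1, Gadd45b, Mt1, Gadd45a, Mdm2, Asns, Cox7a1, Cox6b1, Ndufb4 and Psmb9. The fit that omitted serum line 8 no longer called Ccne1, Cdkn2a, Cdkn2c, Rbl1, Ldhb, Slc2a3, Me1, Gadd45b, Gadd45a, Phgdh, Cox7a1, Cox5a, Cox6b1, Ndufb4, Psmb10 and Psmb9. Without 2i line 20, the threshold was missed by Cdkn2c, Rbl1, Hk1, Slc2a3, Mdm2, Cox7a1 and Ndufb4. In the absence of 2i line 23, the calls of Cdkn2c, Rbl1, Mdm2 and Ndufb4 were lost. Among named genes, Rbl1 lost the call without 2i line 2. Scd1, Nqo1, Rpl39l and Tap1 passed in each of the 6 fits that left out 1 line. Isg15 passed in the 4 fits that left out a 2i line and fell under the level filter in those that left out a serum line. Estimates across them ran from 0.69 to 1.47 for Hk1, from -1.53 to -0.46 for Mdm2, from 0.63 to 1.62 for Asns and from 0.65 to 1.32 for Cox7a1.

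Cytoskeletal targets of SRF, the factor that reads actin dynamics, were called in 2 of 17 cases, both lower, against 6.96% of all genes. Tpm2, a tropomyosin, read 3.15, 1.84, 20.3 and 12.8 RPKM in the 2i lines and 34.6 and 55.2 RPKM in the serum lines (-2.54 ± 0.39 (SE), adjusted p = 0.00667), and Zyx, a focal adhesion protein, 4.21, 4.24, 10.5 and 10.4 RPKM in the 2i lines and 18.5 and 22.8 RPKM in the serum lines (-1.48 ± 0.23 (SE), adjusted p = 0.00765). In both genes the 2i XX lines were lowest and serum line 12 highest, with no overlap between media. Of 12 YAP pathway genes 1 was higher, near the 7.25% of all genes. It was Wwtr1, which encodes the YAP relative TAZ, at 0.73 (adjusted p = 0.0475). With the fibroblast share of the serum lines subtracted 4 were higher. Of 4 oocyte genes that reached the filter 1 was higher, Ooep, of the subcortical maternal complex, at 193, 159, 103 and 115 RPKM in the 2i lines and 98.2 and 63.8 RPKM in the serum lines (0.80 ± 0.14 (SE), adjusted p = 0.0112), and its partner in that complex Khdc3 read 44.4, 59.4, 42.3 and 41.7 RPKM in the 2i lines and 40.9 and 13.5 RPKM in the serum lines (0.95 ± 0.28 (SE), adjusted p = 0.0583), with 0.32 to 1.57 and a call in 2 of the 6 fits without 1 line. Sesn2, a sestrin of the amino acid stress response, was lower at -0.93 (adjusted p = 0.0391), as was Gldc, the glycine decarboxylase, at -0.58 (adjusted p = 0.0478), although 2i line 20 read above serum line 8 for the latter. Ifitm3, an interferon-induced membrane protein with close paralogues, was lower at -0.87 (adjusted p = 0.0341), and so was the proteasome subunit Psmd11 at -0.54 (adjusted p = 0.0314). When serum line 12 was dropped, Wwtr1, Ooep, Sesn2, Gldc, Ifitm3 and Psmd11 did not pass. For Tpm2, Zyx, Wwtr1, Ooep, Sesn2, Gldc, Ifitm3 and Psmd11, the call ended once serum line 8 was left out. Omitting 2i line 20 or 2i line 23 cost Wwtr1, Sesn2, Gldc, Ifitm3 and Psmd11 the call. Leaving out 2i line 15 ended the call of Wwtr1. With 2i line 2 left out, Gldc no longer passed. Over those fits the difference ran from -1.32 to -0.54 for Sesn2.

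The most raised genes by the naming rule were largely outside the lists. Crxos, a homeobox gene that lies opposite Crx, read 34.8, 17.2, 33.8 and 14.2 RPKM in the 2i lines and 1.11 and 0.509 RPKM in the serum lines (3.76 ± 0.39 (SE), adjusted p = 0.00197); no source used here says whether the counting used strand. Ppp1r14d, a phosphatase inhibitor, read 19.12, 14.1, 20.8 and 36.8 RPKM in the 2i lines and 0.715 and 0.784 RPKM in the serum lines (3.68 ± 0.29 (SE), adjusted p = 0.00124). Trpm1, a cation channel, read 48.2, 25.8, 51.9 and 33.7 RPKM in the 2i lines and 2.78 and 2.18 RPKM in the serum lines (3.51 ± 0.30 (SE), adjusted p = 0.00142). The neighbours S100a1 and S100a13 on chromosome 3, calcium-binding proteins, differed by 3.69 ± 0.53 (SE), adjusted p = 0.00546 and 3.35 ± 0.50 (SE), adjusted p = 0.00615. Xaf1 at 3.33 (adjusted p = 0.0017), Pglyrp1 at 3.25 (adjusted p = 0.00221) and the aquaporin Aqp3 at 3.01 (adjusted p = 0.00142) also belonged to the raised set, as did Plagl1. Aqp3 read 220.4, 128, 118 and 79.2 RPKM in the 2i lines and 23 and 9.57 RPKM in the serum lines. Among the most lowered, Slc7a7, an amino acid transporter subunit, read 11.1, 10.1, 18.6 and 32.7 RPKM in the 2i lines and 184 and 221 RPKM in the serum lines (-3.55 ± 0.27 (SE), adjusted p = 0.00124), and Crmp1, a cytoskeletal protein of neurons, 0.721, 0.311, 2.59 and 4.3 RPKM in the 2i lines and 18 and 57.9 RPKM in the serum lines (-3.71 ± 0.25 (SE), adjusted p = 0.000623). Mgp at -3.88 (adjusted p = 0.00192), S100a4 at -3.88 (adjusted p = 0.00334) and Bgn at -3.42 (adjusted p = 0.0157) completed the lowered set, and S100a4 read 5496 and 7853 RPKM in the fibroblasts. Calls lost without serum line 12 were those of S100a1 and Bgn. The fit that omitted serum line 8 no longer called S100a1, S100a13 and Bgn. Crxos, Ppp1r14d, Trpm1, Xaf1, Pglyrp1, Aqp3, Slc7a7, Crmp1 and S100a4 passed in each of the 6 fits that left out 1 line. Mgp passed in the 4 fits that left out a 2i line and fell under the level filter in those that left out a serum line.

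Among the 4 2i lines, Dazl had one of the 6 largest spreads on the log2 scale (SD 2.36). The others by the rule were Acta2 (SD 2.39) and Thbs1 (1.96), high in line 20, Ccnd2 (2.31), which read 41.6, 15.3, 1.12 and 0.535 RPKM in the 2i lines and 15.8 and 21.4 RPKM in the serum lines and so was high in both 2i XX lines, and the retrocopies Pgk1-rs7 (3.26) and Gm9805 (2.33), whose reads cannot be cleanly told from those of near-identical genes. Of 473 X-linked genes 15.9% were called, and of 11904 autosomal genes 14.1%. Of 20 X-linked housekeeping genes 2 were higher, Ogt at 0.72 (adjusted p = 0.0312) and Pdha1 at 0.58 (adjusted p = 0.0192), and 1 was lower, G6pdx at -0.66 (adjusted p = 0.0452). Ddx3x, a helicase that escapes X inactivation, was lower at 161, 228, 116 and 144 RPKM in the 2i lines and 398 and 260.1 RPKM in the serum lines (-1.03 ± 0.17 (SE), adjusted p = 0.00968). Without serum line 12 or serum line 8, the threshold was missed by Ogt, Pdha1, G6pdx and Ddx3x. In the absence of 2i line 20 or 2i line 23, the calls of Ogt, Pdha1 and G6pdx were lost. Among named genes, G6pdx lost the call without 2i line 15.

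The same media were set side by side in a second set of F1 lines (the B6 cross, from 129X1/SvJ and C57BL6), with 4 lines labelled c2i, taken as 2i, and 4 serum lines, 2 XX and 2 XY in each, at passage 3. The table does not treat the crosses alike: Y-linked genes summed to 36.0 to 212 RPKM and mitochondrial genes to 6778 to 11170 RPKM in the B6-cross lines and to 0 in each MSM-cross line, and no source used here says whether other steps differed. Of the 13330 genes tested, 16 were Y-linked or mitochondrial and 0 of these were called for a difference between the crosses, while 24 were listed at 0 throughout the 6 MSM-cross lines and both fibroblast libraries, of which 1 was called. In a fit of all 14 lines with medium and sex within each cross, the MSM cross had 1525 genes higher (11.4% of 13330) and 1600 lower (12.0%), and the B6 cross 1514 higher (11.4%) and 3240 lower (24.3%). Of the genes higher in 2i, 641 were shared, which is 42.0% of the MSM list and 42.3% of the B6 list, and of those lower 990, or 61.9% and 30.6%. Another 85 were called in opposite directions. The difference between the crosses itself passed for 1544 genes (11.6%), of which 1263 (9.47%) had the higher value in the MSM cross and 281 (2.11%) the lower. All genes together had a median difference of 0.12, and with quantile scaling, where it was -0.075, the split was 693 to 505. Fibroblast RNA stood at 8.55% to 13.4% of the fibroblast level in the B6 serum lines and at most 0.0099% in the B6 2i lines. Of the 24 fibroblast genes, 22 were called with the higher value in the MSM cross, and genes 10 times above 2i in fibroblasts made up 25.5% of the 1263 and 0.356% of the 281, against 3.24% of the genes tested. With the fibroblast shares of the serum lines subtracted, 433 had the higher and 373 the lower value. Acta2, smooth muscle actin, was the gene farthest apart by the naming rule, at -2.21 in the MSM cross and -8.05 in the B6 cross, a difference of 5.83 ± 1.15 (SE), adjusted p = 0.00657. Without serum line 12 of the MSM cross the counts were 615 and 84, and without serum line 8 they were 921 and 139; the count with the lower value was 153 without 2i line 20, 161 without B6 2i line 6, 180 without B6 serum line 10 and 172 without B6 serum line 46.

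**Figure D5:**
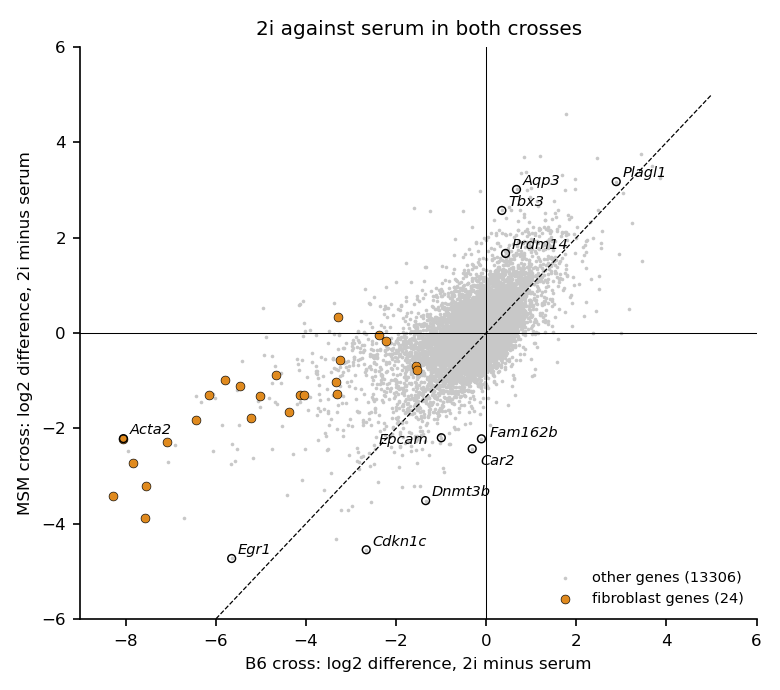
Each point is 1 of 13330 genes; the x axis gives the log2 difference, 2i minus serum, in the B6 cross and the y axis that in the MSM cross, both from the fit of 14 lines, and the dashed line marks equal values. The 24 fibroblast genes, in orange, lie nearer 0 on the y axis than on the x axis, while Dnmt3b, Cdkn1c and Car2 lie below the dashed line.

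Beyond fibroblast genes, members of several lists differed between the crosses. Dnmt3b was lower in 2i by more in the MSM cross, at -3.52 in the MSM cross and -1.34 in the B6 cross, a difference of -2.17 ± 0.40 (SE), adjusted p = 0.00418, while for Dnmt3a the values were -2.02 in the MSM cross and -2.27 in the B6 cross, a difference of 0.25 ± 0.35 (SE), adjusted p = 0.689. Cdkn1c stood at -4.55 in the MSM cross and -2.66 in the B6 cross, a difference of -1.89 ± 0.32 (SE), adjusted p = 0.00242, and Epcam at -2.20 in the MSM cross and -0.995 in the B6 cross, a difference of -1.20 ± 0.20 (SE), adjusted p = 0.00245. Nanog differed by 1.25 in the MSM cross and 0.29 in the B6 cross, a difference of 0.96 ± 0.20 (SE), adjusted p = 0.01, and Prdm14 by 1.67 in the MSM cross and 0.43 in the B6 cross, a difference of 1.24 ± 0.24 (SE), adjusted p = 0.00534. Aqp3 stood at 3.01 in the MSM cross and 0.67 in the B6 cross, a difference of 2.34 ± 0.26 (SE), adjusted p = 0.000152, and Tbx3 at 2.57 in the MSM cross and 0.35 in the B6 cross, a difference of 2.22 ± 0.61 (SE), adjusted p = 0.0352. Car2, a carbonic anhydrase, read 12.1, 13.5, 6.88 and 6.66 RPKM in the 2i lines and 60.8 and 49.2 RPKM in the serum lines and gave -2.43 in the MSM cross and -0.31 in the B6 cross, a difference of -2.12 ± 0.45 (SE), adjusted p = 0.0103. Fam162b read 0.362, 0, 0.175 and 0.188 RPKM in the 2i lines and 5 and 3.98 RPKM in the serum lines and gave -2.22 in the MSM cross and -0.11 in the B6 cross, a difference of -2.11 ± 0.25 (SE), adjusted p = 0.000199. Mlana gave -0.61 in the MSM cross and 1.58 in the B6 cross, a difference of -2.19 ± 0.51 (SE), adjusted p = 0.0164. For the ERK genes Dusp6 and Spry4 the difference between the crosses did not pass, with -2.61 in the MSM cross and -2.77 in the B6 cross, a difference of 0.16 ± 0.32 (SE), adjusted p = 0.784, for the first and -2.69 in the MSM cross and -2.86 in the B6 cross, a difference of 0.18 ± 0.45 (SE), adjusted p = 0.837, for the second. For Plagl1, the values were 3.18 in the MSM cross and 2.88 in the B6 cross, a difference of 0.29 ± 0.36 (SE), adjusted p = 0.65. Leaving out serum line 12 of the MSM cross ended the call of a difference between the crosses for Acta2, Tagln, Mlana, Car2, Nanog, Prdm14 and Tbx3. That of Tbx3 missed the threshold in 10 of the 14 fits without 1 line, without a level filter, after quantile scaling and with the fibroblast share subtracted, and that of Acta2 also with that share subtracted.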

How the data were processed

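RPKM per gene was deposited by the authors as 1 table of 21942 mm10 loci. Per the labels' protocols, stranded mRNA libraries were made from RNA of separate lines. The submitters' processing notes name mm10 with Bowtie2 (2.2.5), TopHat2 (2.1.0), Cufflinks (2.2.1) and cutadapt (1.9.1); which of them made the RPKM, the annotation and the strand setting are not given in the sources used here. Values went to log2 after adding a pseudocount of 1 RPKM, unscaled. A gene was tested where 2 or more libraries of the fit reached 1 RPKM, with limma 3.58.1 in R 4.3.3 (eBayes with a trend, Benjamini-Hochberg adjustment): medium and sex (3 residual degrees of freedom), medium by sex (2), and media within crosses (8). In simulated data with 100 genes changed by 2 and 100 by 1 log2 unit, the medium fit recovered 99 and 58, with 14 false calls among 171, over 12377 genes. The simulations, that of medium by sex included, gave each gene the same spread in serum and 2i lines. With 1 serum line per sex the data cannot check that. The p-values measure the spread between single libraries of each line. Genes were matched by symbol to 44 lists; 16 of 558 hand-written entries had no match and are not analysed here. Members and lists were chosen with earlier results of these data known. Named genes were a checked set, up to 4 called members per list by size (otherwise the farthest from 0), the 10 most raised and 10 most lowered called genes without overlap, the 5 largest differences between crosses each way, and the 6 largest spreads among 2i lines, with names of the Gm-number and Rik kind left out of the most raised, most lowered and cross sets; members outside the rule (Spry1, Spry2, Jun, Ier2, Klf2, Klf4, Zfp42, Fgf4, Dppa2, L1td1, Sall2, Fgf15, Smad9, Rbl1, Mdm2, Ddx4, Sycp3, Sohlh2, Tdrkh, Hormad1, Asz1, Mov10l1, Smc1b, Dmrt1, Cpxm1, Mest, Snrpn, Snurf, Nnat, Zrsr1, Cdh1, Cldn4 among them) were chosen after their values were seen. Some genes that met the rule are not reported here. Tables and plots were made with matplotlib 3.10.9, numpy 2.4.6 and pandas 2.3.3 under Python 3.11.15. Alternatives are in the closing section.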

Additional observations from a re-analysis of the deposited data

Results flagged for a closer look

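In 14 of the 180 genes named by the rule or beside it, 1 of the 4 2i lines stood apart from the others by more than Dixon's 95% limit for the gap over the range on the log2 scale; chance flags about 1 in 20 groups. The ratio was 0.896 for Col1a1, 0.854 for S100a4, 0.976 for Bgn, 0.834 for Col3a1, 0.921 for Acta2, 0.932 for Thbs1 and 0.969 for Tagln, each with line 20 apart and high, the line with the most fibroblast RNA in 2i. It was 1 for Isg15, also with line 20 apart, but each 2i line read under 1 RPKM there, so that ratio compares values at the floor. For Zfp36 it was 0.894, for Mycn 0.912 and for Notum 0.853 with line 2 apart, for Etv5 0.871 with line 15 apart, for Fgf4 0.849 with line 23 apart and low, and for Cdh1 0.868 with line 20 apart and high.

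The 2i minus serum difference itself differed between the crosses (limma, adjusted p under 0.05). With the higher value in the MSM cross were Acta2 by 5.83, Thbs1 by 5.48, Myl9 by 5.11 and Tagln by 5.11 log2 units. Fibroblast RNA stood at 8.55% to 13.4% in the B6 serum lines. With the fibroblast share of the serum lines subtracted, Acta2 no longer passed. For Thbs1, Myl9 and Tagln no value with that share subtracted is given here. Also higher in the MSM cross were Aqp3 by 2.34, Tbx3 by 2.22, Prdm14 by 1.24 and Nanog by 0.96. With the lower value were Dnmt3b by -2.17, Ubd by -2.37, Mlana by -2.19, Car2 by -2.12, Fam162b by -2.11, Cdkn1c by -1.89 and Epcam by -1.20. Ubd is listed at 0 in the 6 MSM-cross lines, so its value there carries no fold.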

How the results depend on the processing

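No paired analysis was possible because the 2i lines (15, 2, 20 and 23) and the serum lines (8 and 12) share no line number. The count of 1758 called genes (897 higher, 861 lower) ran from 376 to 1798 in the fits that left out 1 line, with 197 to 930 higher and 162 to 868 lower; depth in absolute reads is unknown, and 2 serum lines limit the precision of each value. It was 811 (399 higher, 412 lower) without a sex term and 3064 (1538 and 1526) in the fit of 14 libraries; without a filter 469 were higher; the causes were not tested. Other settings stayed within 1.5 times. Medium by sex gave 12 genes (5 and 7) without a filter, and 0 in the other settings, the fits without a 2i line, chosen after seeing the data, included. The difference between the crosses gave 1544 genes (1263 higher, 281 lower), 693 higher and 505 lower after quantile scaling, and 806 in all with 433 higher after subtraction of fibroblast shares; without 1 line it gave 699 to 1759, with 615 to 1378 higher and 84 to 381 lower.

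Of the 128 called genes named by the rule, none changed direction in any setting. Of their values, 1230 of 1382 from settings with all 6 lines and 545 of 744 with 1 line left out stayed called. Among the former, 58 of 128 genes lost the call without a sex term and 50 without a filter. With 1 line left out, most losses came without serum line 12 or serum line 8. Genes that fell under the level filter in those fits had no value there and are not among the 744. Called members named beyond the rule are outside these counts, and their lost calls stand with their lists. Genes without a call changed sign in a few settings. Without serum line 12 these were Uhrf1, Pou5f1, Otx2, Apc, Mlana and Ccnd2, whose values ran, over the fits without 1 line, from -0.042 to 0.713, -0.40 to 0.014, -1.87 to 0.14, -0.29 to 1.31, -1.35 to 0.12 and -3.64 to 0.65. Col1a1 stood at 2.01 with the fibroblast share subtracted. Gm9805 gave 0.00037 with a pseudocount of 5 RPKM and ran from -2.24 to 1.53 without 1 line, with 0.75 without 2i line 2 and 0.041 without 2i line 23. For the difference between the crosses, Dnmt3a, Dusp6 and Spry4, none of them called, ran from -0.25 to 0.75, -0.28 to 0.60 and -0.10 to 0.51 without 1 line; Dusp6 stood at -0.091 after quantile scaling and at -0.012 with the fibroblast share subtracted, Spry4 at -0.053 with a pseudocount of 5 RPKM and at -0.18 after quantile scaling, and Plagl1 at -0.46 with the fibroblast share subtracted.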

Other observations

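The called gene with the farthest difference below 0 was a predicted X-linked gene, Gm17604, listed at 0 in the 4 2i lines and at 69.7 and 70.1 RPKM in serum lines 8 and 12. It is listed at 0 in 23 of the 26 RNA-seq libraries, so no fold is given. It was the 1 gene listed at 0 in each 2i line with at least 5 RPKM in both serum lines, and 0 genes showed the reverse.

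The most raised gene by difference, 1700016D06Rik, read 56.8, 43.3, 14.6 and 17.5 RPKM in the 2i lines and 0.379 and 0.0721 RPKM in the serum lines, with the 2i XX lines above the 2i XY lines. In the B6 cross it read 2.05 and 2.68 RPKM in the 2i XX lines and 13.4 and 16.2 RPKM in the 2i XY lines, the opposite order. Ckb, the brain creatine kinase, read 536, 783, 603 and 658 RPKM in the 2i lines and 156 and 64 RPKM in the serum lines, a difference of 2.66 log2 units (2i minus serum). These 3 genes were chosen after their values were seen.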
